A study of Mus musculus with 9 samples.

Results

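The genes described here are the 5 receptors for the constant part of IgG that mouse monocytes and macrophages can express (Fcgr1, Fcgr2b, Fcgr3, Fcgr4 and Fcgrt), the 2 signaling adaptors Fcer1g and Tyrobp, and the kinase Syk. They were taken as a list by gene symbol, 8 of the 53801 genes counted, and all 8 passed the filter on low counts in every comparison. RNA was sequenced from monocytes/macrophages sorted as CD11c-Ly6G-CD11b+CD45high cells from male C57BL/6J mice aged 9 weeks. Stroke was induced by closing, for good, the distal part of the left middle cerebral artery (dMCAO) and the left common carotid artery. The 3 stroke brain libraries each came from the ipsilesional hemispheres of 5 pooled mice 5 days after dMCAO, the 3 stroke blood libraries each from 1 mouse at the same day, and the 3 sham blood libraries each from 1 sham-operated mouse, for which the day is not given in the sources used here. The CD45high gate does not separate resident from infiltrating cells, and brain cells came from a Percoll gradient and blood cells from Ficoll, so tissue and preparation cannot be told apart.

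Fc gamma receptors bind IgG that coats cells, debris or microbes and let phagocytes engulf what the antibody marks. FCGR1, FCGR3 and FCGR4 are activating receptors that need the FcR gamma chain, encoded by Fcer1g, for signaling and for surface display. FCGR2B is the inhibitory receptor of the family and carries an immunoreceptor tyrosine-based inhibitory motif (ITIM) in its own tail. FCGRT is the heavy chain of the neonatal Fc receptor, which pairs with beta-2-microglobulin and saves IgG and albumin from degradation inside the cell. TYROBP, also called DAP12, is the adaptor of TREM2 and of other receptors of microglia and macrophages. Both adaptors carry an immunoreceptor tyrosine-based activation motif (ITAM), whose paired tyrosines are phosphorylated by Src family kinases and then bound by SYK.

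The motifs that set the adaptors and the inhibitory receptor apart can be read in the coding sequence. The lines below give, 5′ to 3′ on the coding strand of GENCODE M21 transcripts (GRCm38), the codons of the 2 ITAMs and of the ITIM of Fcgr2b, with the tyrosine codons and the codons of the flanking hydrophobic residues in capitals.
Fcer1g ITAM: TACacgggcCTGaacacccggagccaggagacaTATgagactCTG
Tyrobp ITAM: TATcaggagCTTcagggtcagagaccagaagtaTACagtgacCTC
Fcgr2b ITIM: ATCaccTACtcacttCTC
The Fcer1g stretch covers codons 65 to 79 in exons 4 and 5 (chr1:171229889-171230072, minus strand, with an intron between). The Tyrobp stretch covers codons 92 to 106 in exons 4 and 5 (chr7:30415670-30417382, plus strand). The Fcgr2b stretch covers codons 317 to 322 in exon 8 (chr1:170961071-170961088, minus strand). The ITAM pattern was found in the coding sequence of Fcer1g and Tyrobp and of no other of the 8 genes. The shorter ITIM pattern matched by letters in 6 of the 8 and is shown for Fcgr2b because that receptor is the known carrier. The other genes lie on chromosome 3 (Fcgr1), chromosome 7 (Fcgrt) and chromosome 13 (Syk), while Fcgr2b, Fcgr4, Fcgr3 and Fcer1g lie on chromosome 1, between chr1:170958617 and chr1:171234365.

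Fcgr2b and Fcgr3 share sequence, which bears on their counts. Their longest identical coding run, 129 bases across exons 3 and 4, is shown in capitals between 12 flanking bases on each side.
Fcgr2b: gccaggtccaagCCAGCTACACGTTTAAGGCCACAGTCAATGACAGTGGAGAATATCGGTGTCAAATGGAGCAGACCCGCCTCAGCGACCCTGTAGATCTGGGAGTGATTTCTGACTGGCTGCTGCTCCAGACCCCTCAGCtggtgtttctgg
Fcgr3: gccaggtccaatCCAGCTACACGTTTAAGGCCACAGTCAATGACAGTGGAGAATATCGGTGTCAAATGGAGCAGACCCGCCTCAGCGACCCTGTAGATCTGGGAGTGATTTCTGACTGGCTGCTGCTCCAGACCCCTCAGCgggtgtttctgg
The Fcgr2b stretch lies at chr1:170966662-170968093 and the Fcgr3 stretch at chr1:171054155-171057804, both on the minus strand and each interrupted by an intron. Of all windows of 75 bases, the read length, 94 were shared between the transcripts of these 2 genes, which is 1.63% of the Fcgr2b windows and 5.42% of the Fcgr3 windows. Neither gene shared a window with Fcgr1 or Fcgr4, and Fcgr2b shared 62 windows with genes outside the list. How reads in such windows were counted is not given in the sources used here, so the counts of Fcgr2b and Fcgr3 are uncertain to that extent. Exons of Fcgr2b also overlapped the gene Gm38204 on the opposite strand by 155 bases, and the strand setting of the counting is not known.

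The libraries held between 18475118 and 22623578 counts, and no pair of replicates agreed within sampling noise. The labels name monocytes/macrophages, and Csf1r, Lyz2 and Cd68 were counted at high levels in all 3 groups. In the brain libraries all 8 microglia markers were higher than in stroke blood (summed level 1212 to 3360 CPM against 149 to 205 CPM), and all 6 classical monocyte markers were lower (4672 to 5781 against 11762 to 14206 CPM). Dendritic cell markers were higher for 6 of 7 (705 to 931 against 111 to 236 CPM), and all 5 tested border macrophage markers were higher (110 to 237 against 51.9 to 65.1 CPM for the whole list). Of 8 non-classical monocyte markers 2 were higher and 2 lower. Their summed level without Nr4a1 overlapped (1023 to 1269 against 1231 to 1449 CPM). Of 9 NK and T cell markers 3 were higher, and the summed level overlapped (626 to 1245 against 311 to 898 CPM). Of 7 tested neutrophil markers 5 were higher and 1 (Mmp8) was lower, the summed level of the list overlapped (699.6 to 1149 against 671 to 841 CPM), and Ly6g, the gene of the antigen gated out, stayed near 0 (0.301 against 0.279 CPM in the mean). Of 5 tested B cell markers 0 passed (432 to 688 against 655 to 741 CPM for the list). Of 2 tested mast cell and basophil markers 1 was higher (18.7 to 24.4 against 0.120 to 5.02 CPM for the list). Of 5 tested endothelial and neural markers 2 were higher and 1 lower (174 to 293 against 257 to 364 CPM for the list). The 7 platelet and 7 erythroid markers were lower, near 0 in the brain, where Gp5 and Slc4a1 were among those with no count. Sham blood replicate 1 stood apart from the other sham libraries by its erythroid markers (1250 CPM in sum against 31096 and 33867 CPM). Sham blood replicate 3 stood apart by its classical monocyte markers (33233 CPM against 15034 and 17607 CPM) and neutrophil markers (2903 CPM against 939 and 958 CPM). The part of these cell types in the results below was not tested, and in bulk RNA fewer cells of a type and less RNA per cell cannot be told apart.

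Compared per kilobase of exon, the adaptors stood far above the receptors and Syk lowest. In stroke blood Tyrobp had 6315 ± 492 and Fcer1g 4164 ± 785 CPM per kb (CPM, counts relative to a library size scaled by the trimmed mean of M values, TMM; mean ± SD, n = 3). Fcgr3 followed with 427 ± 9.92 CPM per kb and was the most abundant receptor in each group. Fcgr1 had 91.0 ± 28.3, Fcgr2b 58.6 ± 11.1, Fcgr4 45.9 ± 18.04, Fcgrt 43.5 ± 6.74 and Syk 27.0 ± 2.35 CPM per kb. Among these last 5 genes the SD ranges of neighbours overlapped, except between Fcgrt and Syk. The order was the same in sham blood. In the brain, Fcgr4 (86.4 ± 9.88 CPM per kb) stood above Fcgr2b (63.1 ± 3.79) and below Fcgr1 (104 ± 24.5). Tyrobp, Fcer1g and Fcgr3 kept the first 3 ranks with the length of the principal transcript in place of all exons, whereas the order of the other 5 genes changed.

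**Figure D1:**
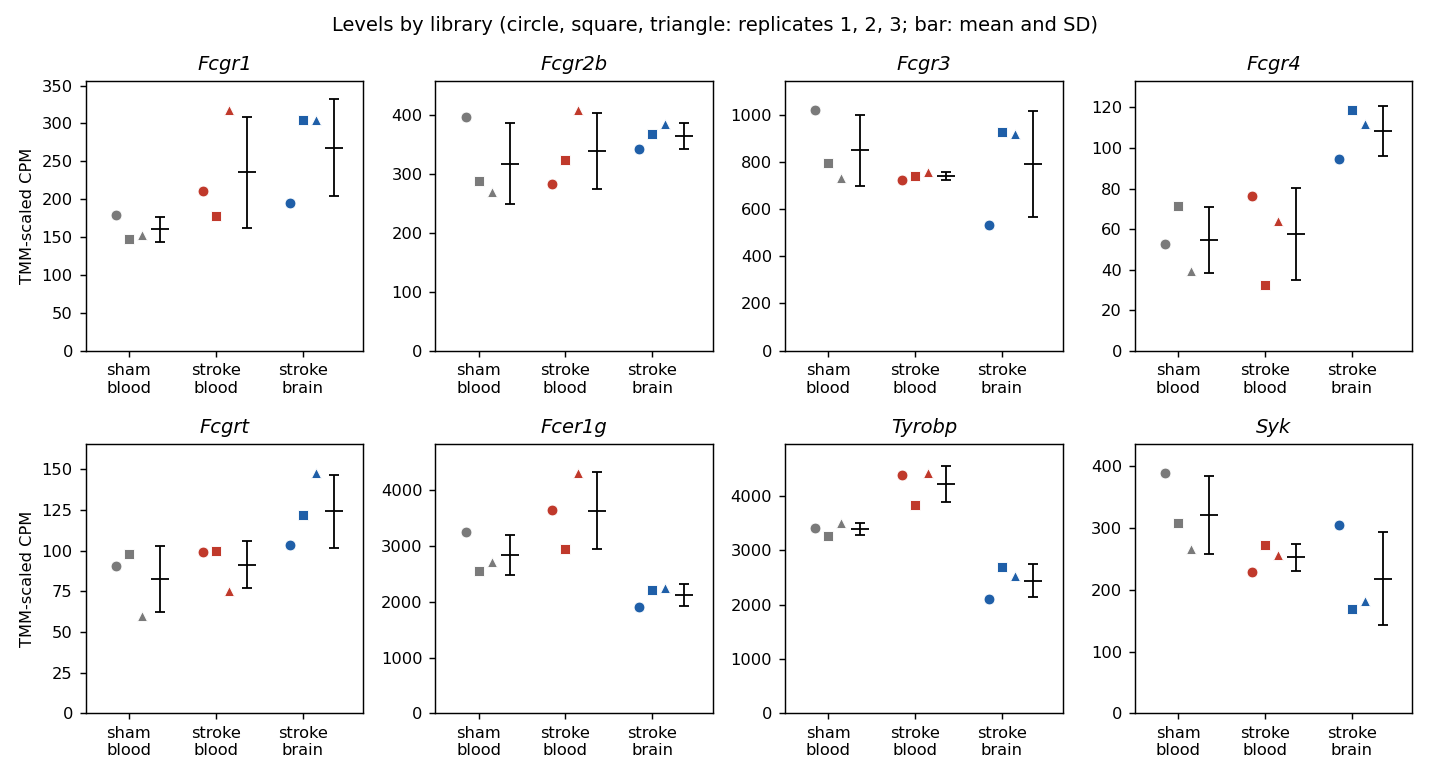
TMM-scaled CPM (linear axes from 0) of the 8 genes in each library of sham blood, stroke blood and stroke brain, with the mean and SD (n = 3) beside each group. All 3 brain libraries lie above the 3 stroke blood libraries for Fcgr4 and Fcgrt and below them for Fcer1g and Tyrobp.

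The main question was how Fc receptor genes of brain macrophages compared with those of blood monocytes after stroke. Fcgr4 was upregulated in the brain, while both adaptors were downregulated in the counts as deposited, and the other 5 genes did not pass the test. None of the 8 genes was a DEG (absolute log2 fold change above 1 and adjusted p below 0.05, edgeR quasi-likelihood test with Benjamini-Hochberg adjustment over 13189 genes), where 21% of all genes tested were. With the adjusted p alone 3 of 8 passed, where 30.6% of all genes tested did. Of these, 1 was higher (17.5% of all genes) and 2 were lower (13.1%). The median log2 fold change of the 8 genes was 0.14, beside 0.06 over all genes tested.

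Fcgr4, an activating receptor for several IgG subclasses, measured 94.7, 119 and 112 CPM in brain replicates 1 to 3. In stroke blood it measured 76.4, 32.5 and 64.0 CPM. The groups did not overlap, and the spread was wider in blood, where replicate 2 was lowest. Fcgr4 was 1.94-fold higher in the brain (95% interval 1.26 to 2.97), or 0.95 ± 0.27 (SE) on the log2 scale, with an edgeR adjusted p of 0.0273. Neutrophils also express Fcgr4. Of their 7 tested markers, 5 were higher in the brain than in stroke blood and 1, Mmp8, was lower. Ngp rose from 7.44 ± 12.3 to 220 ± 78.6 CPM and Camp from 2.14 ± 3.34 to 51.4 ± 22.9 CPM. Mmp8 fell from 450 ± 29.3 to 127 ± 17.6 CPM, Csf3r did not pass the test, and the summed level of the list overlapped. Of 8 non-classical monocyte markers 2 were higher and 2 lower. The part of these cell types in the Fcgr4 result was not tested. Without stroke blood replicate 2 the log2 value of Fcgr4 was 0.63 (edgeR adjusted p = 0.0349). The call was lost without stroke blood replicate 3, brain replicate 2 or brain replicate 3 (edgeR adjusted p from 0.0737 to 0.0804). Upper-quartile normalization also lost it (0.80, edgeR adjusted p = 0.0567).

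Fcgr1, the high-affinity receptor, measured 195, 304 and 305 CPM in the brain and 211, 177 and 318 CPM in stroke blood. The groups overlapped, since brain replicate 1 lay below stroke blood replicates 1 and 3 (log2 fold change 0.23, edgeR adjusted p = 0.516). Fcgr3, the low-affinity activating receptor, measured 531, 927 and 917 CPM in the brain and 724, 738 and 759 CPM in stroke blood. Brain replicate 1 was the lowest of all 9 libraries for Fcgr3, and the other brain replicates were above every stroke blood library (0.13, 95% interval -0.34 to 0.60, edgeR adjusted p = 0.675). Fcgr2b, the inhibitory receptor, measured 342, 369 and 385 CPM in the brain and 283, 325 and 409 CPM in stroke blood. Its difference was 0.14 (95% interval -0.22 to 0.51, edgeR adjusted p = 0.545), and its sign turned with upper-quartile normalization, with the exon-length offset and without stroke blood replicate 1. Fcgr3 also changed sign with upper-quartile normalization. Fcgrt, the neonatal Fc receptor, measured 103, 122 and 148 CPM in the brain and 99.5, 99.9 and 75.2 CPM in stroke blood. The groups did not overlap, as for 48.2% of all genes tested, but the difference of 0.47 did not pass the test (edgeR adjusted p = 0.0914).

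Fcer1g, the shared chain of the activating receptors, measured 1902, 2221 and 2249 CPM in the brain. In stroke blood it measured 3649, 2948 and 4320 CPM. Every brain library was below every blood library, sham blood included, and the difference was -0.74 ± 0.17 on the log2 scale (0.599 of the blood level, 95% interval 0.459 to 0.782; edgeR adjusted p = 0.0108). Tyrobp measured 2101, 2698 and 2521 CPM in the brain and 4377, 3834 and 4425 CPM in stroke blood. Its groups were as clearly apart, with a difference of -0.75 ± 0.16 on the log2 scale (0.593 of the blood level, 95% interval 0.465 to 0.757; edgeR adjusted p = 0.00631). Both calls held with each library left out and with each alternative scaling, and both were lost when exon length was taken into account, as described next.

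Fold changes moved with the length of the gene. In brain versus stroke blood, the 1043 genes tested with under 1000 bases of exon had a median log2 fold change of -0.92, and 32.0% of them passed the adjusted p as lower and 5.27% as higher. The 2045 genes with at least 8000 bases had a median of 0.23, with 6.60% lower and 21.0% higher. Fcer1g (874 bases) and Tyrobp (667 bases) are the only ones of the 8 genes under 1000 bases, and their values lay close to the median of their class. Among the 100 genes of that class with a mean of at least 50 CPM, the median was -0.82 and 70% passed as lower. With an offset for exon length in the fit, the log2 value of Fcer1g became -0.12 ± 0.14 (edgeR adjusted p = 0.535) and that of Tyrobp 0.0057 ± 0.17 (edgeR adjusted p = 0.984). Fcgr4 (1256 bases) had 1.35 ± 0.24 (edgeR adjusted p = 0.00355) and became a DEG, and Fcgrt had 0.57 ± 0.18 (edgeR adjusted p = 0.0409). The offset was chosen after the data were seen, and what made short genes lower was not tested. The adaptor calls were thus lost with the offset, the only 1 of 15 alternatives in which they were lost. The Fcgr4 call held with the offset but was lost in 4 of the 15 alternatives.

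**Figure D2:**
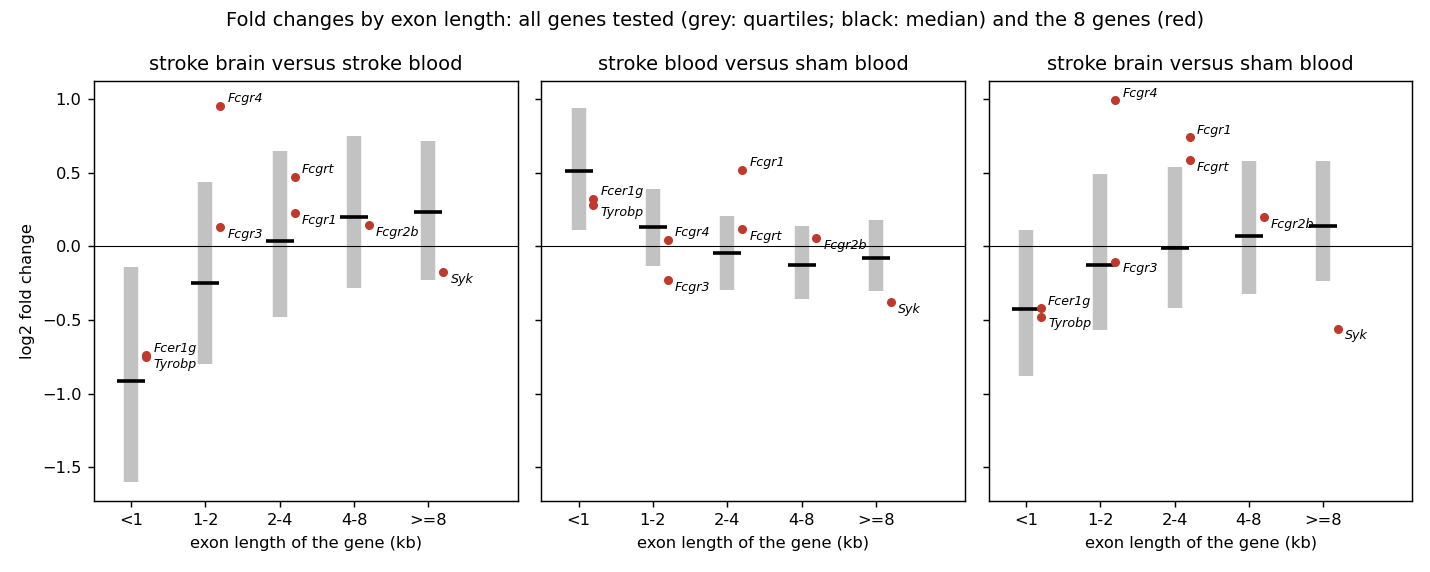
Log2 fold changes by exon length class (kb) for all genes tested (grey bars from the lower to the upper quartile, black line at the median) and for the 8 genes (red points, without the offset), 1 panel per comparison. In brain versus stroke blood the medians go from -0.92 in the shortest class to 0.23 in the longest, with Fcer1g and Tyrobp in the shortest class.

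Syk, the kinase that binds phosphorylated ITAMs, measured 304, 169 and 181 CPM in the brain and 229, 273 and 256 CPM in stroke blood. Brain replicate 1 was the highest of these 6 libraries and the other brain replicates were the lowest. The difference was -0.18 (95% interval -0.70 to 0.35, edgeR adjusted p = 0.601). Brain replicate 1, which was lowest among the brain libraries for the other 7 genes, decided this value, and without it Syk fell by 0.50 on the log2 scale (edgeR adjusted p = 0.0474). That library also had the lowest summed level of microglia markers (1212 CPM against 1793 and 3360 CPM) in the brain and the highest level of the immediate early gene Nr4a1 (3105 CPM against 689.7 and 864 CPM). The part of these genes in the result was not tested.

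**Figure D3:**
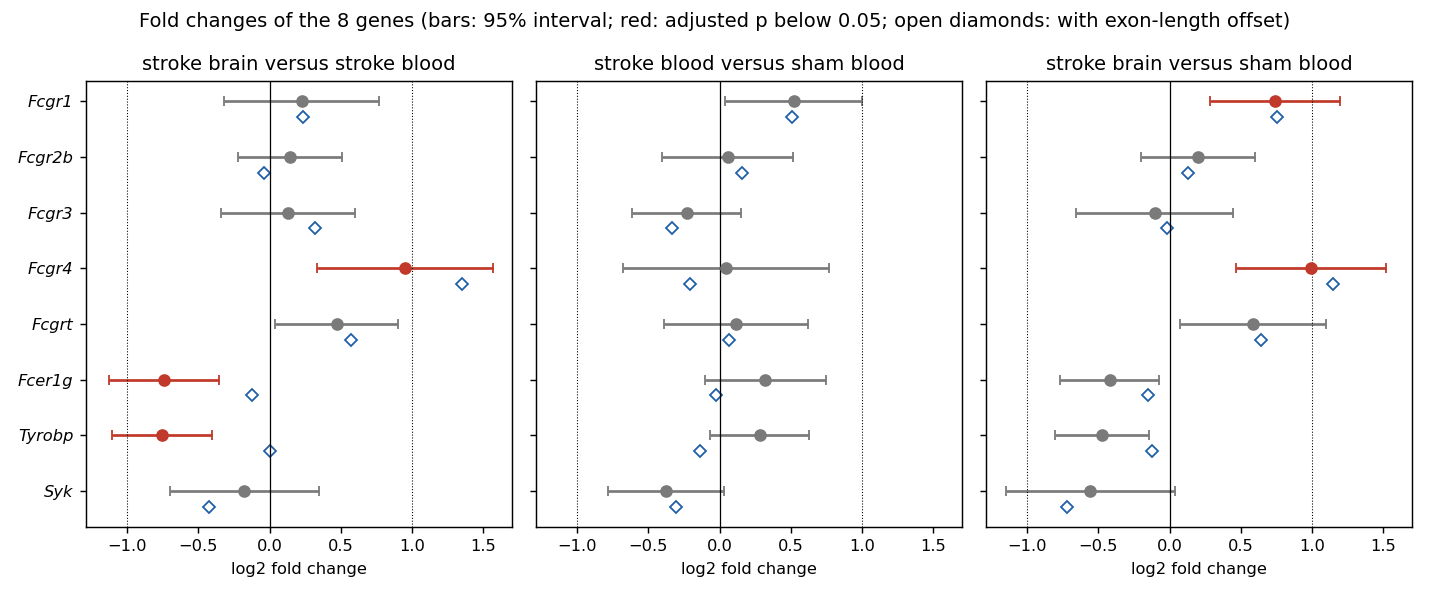
Log2 fold changes (first group over second) of the 8 genes in the 3 comparisons, with 95% intervals, in red where the adjusted p was below 0.05, and with open diamonds for the fit with an exon-length offset. Dotted lines mark the fold threshold for DEGs; the diamonds of Fcer1g and Tyrobp lie near 0 in brain versus stroke blood while that of Fcgr4 lies at 1.35.

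Stroke and sham blood were compared to ask whether circulating monocytes changed these genes. None of the 8 passed the adjusted p in stroke versus sham blood (edgeR), where 1 of 12664 genes did (0.0079%). At an unadjusted p below 0.05, 1 of 8 passed (12.5% of all genes), both with edgeR and with DESeq2. That gene was Fcgr1, which measured 179, 148 and 153 CPM in sham blood, with a log2 fold change of 0.52 (95% interval 0.04 to 1.00, edgeR adjusted p = 0.381). Its level was highest in stroke blood replicate 3 (318 CPM), and stroke blood replicate 2 (177 CPM) lay within the range of sham blood. Tyrobp measured 3405, 3264 and 3500 CPM in sham blood, below all stroke blood libraries (0.28, edgeR adjusted p = 0.476), and 18.1% of all genes did not overlap in this comparison. Fcer1g measured 3247, 2557 and 2716 CPM in sham blood (0.32, edgeR adjusted p = 0.501). Short genes lay on the other side here, with a median of 0.51 under 1000 bases, and with the length offset the differences of Fcer1g and Tyrobp were -0.03 and -0.13. Syk measured 390, 307 and 266 CPM in sham blood (-0.38, edgeR adjusted p = 0.435). Fcgr2b (0.06), Fcgr3 (-0.23), Fcgr4 (0.04) and Fcgrt (0.11) had overlapping groups. The 95% intervals of the 8 genes lay between -0.79 and 1.00.

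Against sham blood, which shares the brain libraries with the comparison above, Fcgr1 and Fcgr4 were upregulated in the brain. These 2 of 8 genes passed the adjusted p (edgeR over 13020 genes), where 19.8% of all genes did (12.1% as higher), and 0 of 8 were DEGs, where 13.4% were. Fcgr1 was higher by 0.74 ± 0.20 on the log2 scale (1.67-fold, 95% interval 1.22 to 2.30; edgeR adjusted p = 0.0359), and every brain library was above every sham library, while 41.2% of all genes did not overlap. Leaving out brain replicate 2, brain replicate 3, sham replicate 2 or sham replicate 3 lost this call (edgeR adjusted p from 0.105 to 0.121). Fcgr4 measured 52.6, 71.6 and 39.2 CPM in sham blood and was higher in the brain by 0.99 ± 0.23 (1.99-fold, 95% interval 1.38 to 2.87; edgeR adjusted p = 0.0211). Its call was lost without brain replicate 2, brain replicate 3 or sham replicate 1 (edgeR adjusted p from 0.0541 to 0.0742). Sham replicate 1 is the library with few erythroid reads, and the value without it was 0.97. In this comparison 4 of 8 non-classical monocyte markers were higher and 0 lower. Of 8 tested neutrophil markers 2 were higher and 1 lower, and of 6 B cell markers 0 were higher and 4 lower. The part of these cell types was not tested. Tyrobp (-0.48, edgeR adjusted p = 0.0526) and Fcer1g (-0.42, edgeR adjusted p = 0.0888) were lower in every brain library than in every sham library but did not pass with edgeR, while Tyrobp passed in 4 of 15 alternatives, DESeq2 among them (DESeq2 adjusted p = 0.0355). The median of genes under 1000 bases was -0.43 in this comparison. Syk differed by -0.56 (95% interval -1.15 to 0.04), and without brain replicate 1 by -0.88 (edgeR adjusted p = 0.025). Fcgrt (0.58), Fcgr2b (0.20) and Fcgr3 (-0.10) did not pass.

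Ratios within a library do not depend on the scaling between libraries. The summed activating receptors (Fcgr1, Fcgr3 and Fcgr4) stood to the inhibitory Fcgr2b at 10.9 ± 0.667 in sham blood, 9.78 ± 1.47 in stroke blood and 10.2 ± 2.13 in the brain (counts per kb of exon, mean ± SD, n = 3), and the groups overlapped. The brain values were 7.74, 11.72 and 11.04, with replicate 1 lowest. Per kb of principal transcript the means in sham blood, stroke blood and brain were 8.26, 7.30 and 7.49. In raw counts they were 3.37, 3.09 and 3.18, so the size of this ratio depends on the length used. Within the activating receptors, Fcgr4 stood to Fcgr3 at 0.246, 0.177 and 0.169 in the brain and at 0.146, 0.0608 and 0.117 in stroke blood, so that every brain library was higher, by 1.83 times in the mean. Fcgr3 nonetheless remained the more abundant of the pair in every library. Fcer1g stood to Tyrobp at 0.639 ± 0.0767, 0.656 ± 0.0810 and 0.667 ± 0.0336 in sham blood, stroke blood and brain, with overlapping groups. The activating receptors stood to Fcer1g at 0.210, 0.294 and 0.286 in the brain and at 0.134, 0.154 and 0.124 in stroke blood, with 0.188, 0.195 and 0.165 in sham blood. This last ratio was chosen after the values were seen, and it sets a short gene against longer ones, so the length dependence above enters it. No test was made on the ratios.

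**Figure D4:**
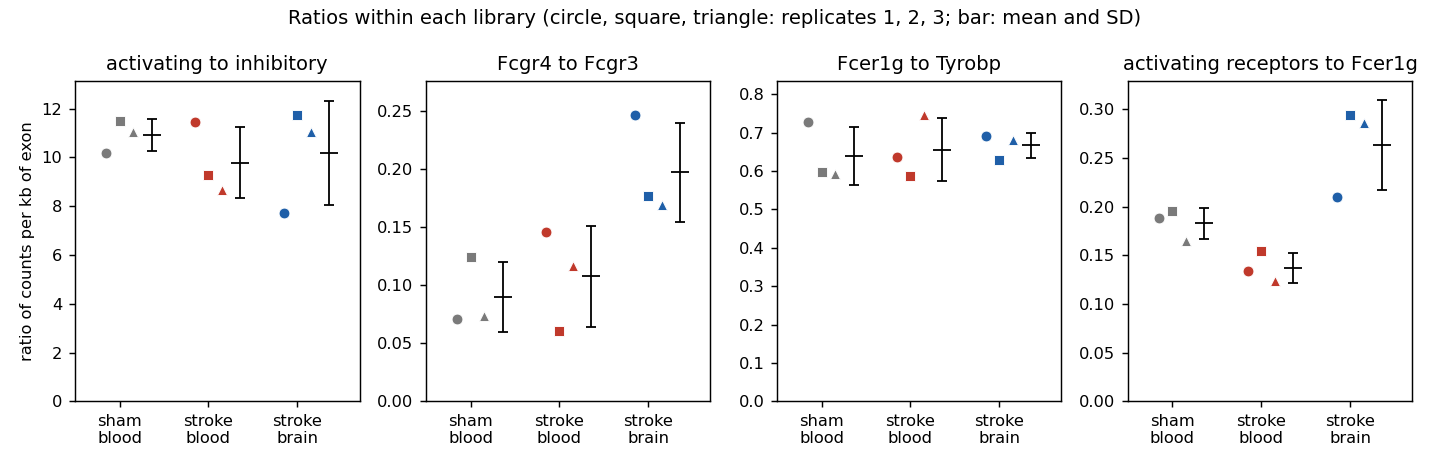
Ratios of counts per kb of exon within each library (linear axes from 0; points are libraries, bars the mean and SD, n = 3). Fcgr4 to Fcgr3 and the activating receptors to Fcer1g are higher in all 3 brain libraries than in all stroke blood libraries, whereas the ratios of activating to inhibitory receptors and of Fcer1g to Tyrobp overlap.

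The genes around these receptors were read from 7 lists of the pathway. None of the 81 genes tested passed the adjusted p in stroke versus sham blood with edgeR, 20 had an unadjusted p below 0.05, and 7 passed with DESeq2. In brain versus stroke blood 52 of 83 passed (62.7%, beside 30.6% of all genes tested), 33 as higher and 19 as lower, and the counts of each list below stand beside 17.5% higher and 13.1% lower over all genes. The lists were chosen with earlier results of these data known, so neither this share nor the counts of each list show an enrichment. Of the 52 genes, 46 also passed with the exon-length offset, none with a changed sign, and 6 did not (Plcg1, Dok1, Trem2, Trem3, B2m and Hcst).

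Of the 7 Src family kinases and their regulators, which act just before SYK, 1 was higher and 2 were lower in the brain (edgeR adjusted p; 17.5% and 13.1% of all genes). Fyn rose from 19.6 ± 4.45 to 153 ± 23.3 CPM (log2 fold change 3.00, edgeR adjusted p = 2.92e-05). Fgr (-0.48) and Csk (-0.86), the kinase that restrains the family, fell. Lyn (-0.39), which is abundant in myeloid cells, did not pass.

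Of the enzymes and scaffolds downstream of SYK, the largest list, 10 of 19 were higher (17.5% of all genes) and 1 was lower (13.1%). Their median log2 fold change was 0.83 beside 0.06 over all genes tested, without matching for exon length. Blnk, an adaptor that SYK phosphorylates, rose from 3.16 ± 2.01 to 40.4 ± 9.13 CPM (log2 fold change 3.71, edgeR adjusted p = 0.000296). All 3 Vav exchange factors, which act on the cytoskeleton, rose (Vav1 0.85, Vav2 2.00, Vav3 1.23). The adaptors Gab2 (1.30), Pik3ap1 (1.23), Lat2 (1.11) and Grb2 (1.10), the regulatory PI3K subunit Pik3r1 (0.83) and phospholipase Plcg1 (1.39) rose as well. Card9, which links SYK to NF-kappaB, fell (-0.83). Plcg2 (-0.20), Btk (0.08) and Lcp2 (0.22) did not pass.

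Of 11 inhibitory phosphatases, adaptors and ubiquitin ligases, 3 were higher and 2 lower (17.5% and 13.1% of all genes). Inpp5d, the phosphatase SHIP recruited by FCGR2B, rose from 233 ± 54.3 to 397 ± 19.8 CPM (0.80, edgeR adjusted p = 0.0122). The adaptors of the Dok family split, with Dok2 higher (1.81) and Dok1 (-0.82) and Dok3 (-0.95) lower. Sla2 rose (1.60). Ptpn6, the phosphatase SHP-1, had -0.11 and did not pass.

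Receptors that signal through FcR gamma, DAP12 or a hemITAM went both ways, with 6 of 17 tested higher and 6 lower. Trem1, a DAP12 receptor that amplifies inflammation, rose from 12.6 ± 4.14 to 201 ± 111 CPM (4.04, edgeR adjusted p = 0.000226). The FcR gamma-coupled lectins Clec4n (2.40), Clec4d (1.70) and Clec4e (1.21) and the DAP12 receptor Trem2 (1.08) rose. Siglech, which is also a microglia marker, had no count in stroke blood and 93.2 ± 55.7 CPM in the brain, at least 589-fold higher against a floor of 3 counts per library. Sirpb1a, Sirpb1b, Sirpb1c and Trem3 fell, by 0.57 to 1.15 on the log2 scale. Clec1b and Gp6, which are platelet receptors, fell from 20.3 ± 2.10 and 6.46 ± 1.39 CPM to 0.402 ± 0.373 and 0.128 ± 0.185 CPM, beside the fall of all 7 platelet markers.

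ITIM receptors other than FCGR2B, which send inhibitory signals in myeloid cells, numbered 14, with 7 higher and 5 lower. Cd72 rose from 2.02 ± 1.22 to 46.3 ± 8.43 CPM (4.54, edgeR adjusted p = 7.42e-05). Lilr4b (2.43), Cd300lf (2.04), Lilrb4a (2.02), Lair1 (1.16), Pecam1 (1.01) and Cd33 (0.86) rose. Clec4a2 (-1.17), Clec12a (-1.10), Siglece (-1.10), Milr1 (-0.94) and Pirb (-0.62) fell.

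Among other Fc receptors, 8 of 12 genes were tested, with 3 higher and 2 lower. Fcrls, a microglial gene of the Fc receptor-like family, rose from 0.377 ± 0.340 to 373 ± 239 CPM (edgeR adjusted p = 3.83e-05), with a wide spread between the brain pools. Fcrlb (3.36) and Fcrl1 (1.18) rose from low levels. Trim21, the Fc receptor of the cytosol, fell from 29.3 ± 1.69 to 8.89 ± 1.58 CPM (-1.69, edgeR adjusted p = 0.000572), and B2m, the light chain that FCGRT needs, fell by 0.74 on the log2 scale, to -0.10 with the offset. Of the other ITAM chains, the T cell chains Cd247 (1.58), Cd3d (1.67) and Cd3g (1.91) rose from 5.06, 2.32 and 2.74 CPM in stroke blood. Cd3d and Cd247 are also on the list of NK and T cell markers, where Klrd1 was the only other of 9 genes to rise (from 15.3 ± 9.29 to 40.8 ± 3.67 CPM). Hcst, the short adaptor DAP10, fell (-1.06).

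**Figure D5:**
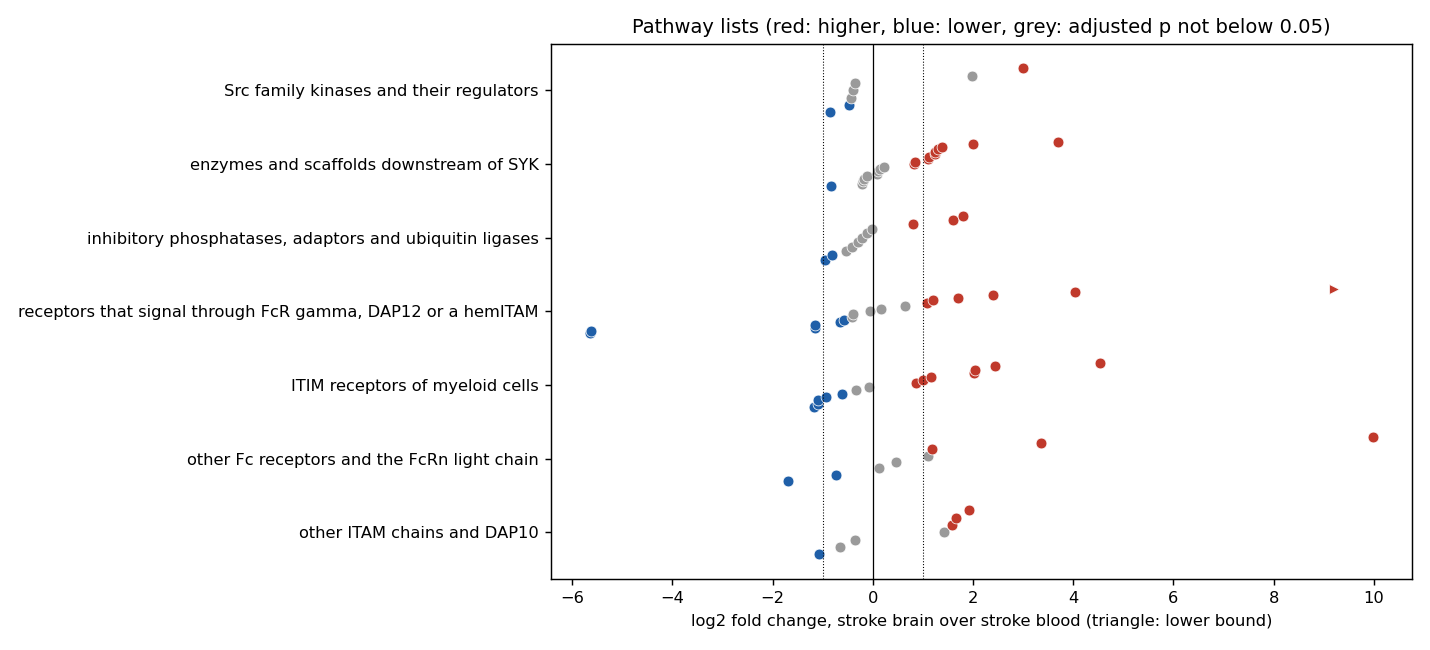
Log2 fold change in stroke brain over stroke blood for every tested gene of the 7 pathway lists, red where higher and blue where lower at an adjusted p below 0.05, grey otherwise. The triangle is the lower bound for Siglech, and 10 of 19 genes downstream of SYK lie on the red side.

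The genes with the most similar pattern over the 9 libraries were looked up among 4583 genes by Pearson's r of log2 CPM, as a description, since the points share the 3 groups and the scaling. Fcer1g was most like Pomp (r = 0.994), Txndc17 (0.986) and Rbx1 (0.984), and Tyrobp most like Smim20 (0.989), Uqcrh (0.988) and Gpx1 (0.986). Fcgr4 was most like Mogs (0.950), Mafg (0.941) and H2-Q7 (0.930). Fcgr3 was most like Casp8 (0.980), Fcgr1 like Denr (0.965), Syk like Wbp11 (0.974), Fcgrt like Treml4 (0.951) and Fcgr2b like Zfp36 (0.904). Treml4 is on the list of non-classical monocyte markers.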

How the data were processed

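Monocytes/macrophages were sorted, and libraries were made from their total RNA with the SMART-Seq HT and Nextera XT kits and sequenced as paired-end reads of 75 bp. Within Chipster, the authors ran FastQC, aligned reads to GRCm38 by HISAT2 and assigned them to genes by HTSeq. The deposited files hold raw counts, and tool versions, annotation release and strand setting are not given in the sources used here. Groups and replicate numbers were taken from the labels. Gene symbols, positions, exon lengths and coding sequences came from GENCODE M21, where 53706 of the 53801 identifiers were found. Library totals were between 18475118 and 22623578 counts. The 95% intervals come from the fits and include the spread between libraries, whereas a floor of 3 counts reflects counting alone.

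Each pair of groups was fitted on its own by the quasi-likelihood method of edgeR 4.0.16 (R 4.3.3) after TMM scaling and filterByExpr. DEGs needed an absolute log2 fold change over 1 together with a Benjamini-Hochberg adjusted p under 0.05. Standard errors were derived from the F statistics. CPM used TMM-scaled library sizes over all 9 libraries. Alternatives were DESeq2 1.42.0, other filters, scalings and thresholds, and 1 fit over all 9 libraries. Further ones were a block for the replicate number, each library left out and, added after the data were seen, an offset for exon length. For the offset, each gene's mean log2 CPM over the libraries fitted was subtracted. The deviations were then smoothed on log2 exon bases in each library. The fits were tested on simulated data.

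The 8 genes and all lists were chosen with earlier results of these data known. Every member was named. Pathway genes were named from those that passed a test, with a few others chosen after their values were seen. Marker genes were chosen after their values were seen, without a fixed rule. Similar genes were taken from the 3 highest correlations among genes with a mean log2 CPM above 5. P-values measure the spread between libraries of single mice or pools.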

Additional observations from a re-analysis of the deposited data

How the results depend on the processing

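The fold changes of Fcer1g and Tyrobp in brain versus stroke blood kept direction and call in 14 of 15 alternatives; the exception was the exon-length offset, with which Tyrobp reversed to 0.00573 (-0.13 in stroke versus sham blood, where Fcer1g was -0.0281 and Fcgr4 -0.21; Fcgr2b was -0.0365 in brain versus stroke blood). Fcgr4 kept its call in 11 of 15 alternatives in brain versus stroke blood and 12 of 15 in brain versus sham blood, and Fcgr1 in 9 of 15 in brain versus sham blood. Depth was not varied, so what it limits was not tested. The all-gene median moved by -0.15 with upper-quartile normalization and by 0.15 with library size only in brain versus stroke blood, and by 0.12 with library size only in brain versus sham blood; the share of DEGs that were higher was 62.6%, 52.7% and 72.2% in brain versus stroke blood. Upper-quartile normalization reversed Fcgr2b (-0.00558) and Fcgr3 (-0.0189) in brain versus stroke blood, and library size only reversed Fcgr4 in stroke versus sham blood (-0.00148) and Fcgr3 in brain versus sham blood (0.0160). The cause was not tested.

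In brain versus stroke blood, 1 of the 8 genes was a DEG with library size only and with the offset, 0 to 1 with a library left out, and 3 with no fold threshold, where 1727 genes were lower. An adjusted p below 0.01 left 1793 DEGs (598 lower) and 1 of the 8 genes. In brain versus sham blood, 1 of the 8 was a DEG with library size only, with a mean of at least 50 counts and with the offset, and 2 with no fold threshold (1000 genes lower); an adjusted p below 0.01 left 792 DEGs (610 higher, 182 lower) and 0 of the 8. In stroke versus sham blood the count of 1 DEG became 127 with DESeq2 (61 higher, 66 lower), 160 with no filter on low counts (59 higher, 101 lower) and 0 below 0.01, and none of the 8 genes passed in any of these.

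With a library left out in turn, DEGs numbered 0 to 16 in stroke versus sham blood (0 to 1 higher, 0 to 15 lower, with 15 lower without sham replicate 1) and 1146 to 1883 in brain versus sham blood (277 to 669 lower), where 0 to 3 of the 8 genes passed the adjusted p and 0 to 1 were DEGs. Single libraries turned the sign of differences that had not passed the test. In brain versus stroke blood this was Fcgr2b (-0.00543 without stroke blood replicate 1, range -0.00543 to 0.26). In stroke versus sham blood it was Fcgr2b (-0.0898 without stroke replicate 3, -0.0128 without sham replicate 2 and -0.0596 without sham replicate 3, range -0.0898 to 0.25), Fcgr4 (-0.24 without stroke replicate 1, -0.0371 without stroke replicate 3 and -0.16 without sham replicate 3, range -0.24 to 0.29) and Fcgrt (-0.0824 without sham replicate 3, range -0.0824 to 0.25). In brain versus sham blood it was Fcgr3 (0.11 without brain replicate 1 and 0.0484 without sham replicate 1, range -0.24 to 0.11).

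Whether a stroke blood mouse was also among the mice of a brain pool is not given in the sources used here. Deviations of same-numbered libraries correlated at -0.0786 to 0.0762, and those of different-numbered libraries at -0.0918 to 0.130. With 3 libraries per group this cannot exclude shared animals, and the samples were fitted as unpaired. With the replicate number as a block there were 2634 DEGs in brain versus stroke blood, 1 DEG in stroke versus sham blood (0 higher, 1 lower) and 1571 DEGs in brain versus sham blood. With this block 1 of the 8 genes, Fcgr4, was a DEG in brain versus stroke blood (1.02) and in brain versus sham blood (1.03), and 1 of the 8 passed the adjusted p in the latter.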
